A study of Felis catus with 12 samples.

Results

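The heart draws most of its energy from long-chain fatty acids, and the genes described here encode the proteins that take fatty acids up, activate them, carry them into the mitochondrion and break them down by beta-oxidation, together with regulators of these steps. The list was chosen by gene symbol and holds 37 genes. Of these, 36 were among the 30785 genes listed for left ventricular tissue of 12 cats, and 34 passed the filter on reads, which kept 8820 genes in all. ACOT2 was not analysed here, since it was not found under its symbol.

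Tissue was taken post mortem from the left ventricle of cats of a study of naturally occurring feline cardiac disease, in which animals died with congestive heart failure, with arterial thromboembolism or without a documented cardiac cause. Each cat gave 1 library for direct RNA sequencing, a nanopore method that reads RNA molecules without making cDNA. The labels give for each library a cat number and a flow cell, and no genotype, treatment, age or outcome, so the flow cells were the groups compared. Cats 11, 23, 30 and 31 were sequenced on flow cell A, cats 10, 15, 35 and 36 on flow cell B, and cats 37, 38, 29 and 22 on flow cell C. No cat had a library on more than 1 flow cell, so a difference between flow cells and a difference between the cats on them cannot be told apart, and the p-values measure the spread between cats.

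Reads on genes numbered 789257 to 2263110 per library. The values below are scaled reads, that is, reads divided by the size factor of the library. Markers of cardiac muscle cells were abundant in each library, with summed scaled reads of 152771 to 411771, whereas the 7 adipocyte markers had few reads. ADIPOQ, LEP and CIDEC had 0 to 4 reads per library, and ADIPOQ had none in 9 of the 12, while PLIN1, PLIN4 and LIPE had 1 to 15 and were found in each library, and CIDEA had 0 to 29. The libraries of cats 11 and 31 were the lowest for the fatty acid genes. In each of these 2 libraries 31 of the 34 tested genes lay below their own median over the 12 libraries, and the median deviation was -0.82 on the log2 scale in cat 11 and -0.53 in cat 31. In the other 10 libraries it ranged from -0.16 in cat 23 to 0.44 in cat 15. There 27 of the 34 genes lay below their own median in cat 23, 23 in cat 22, 21 in cat 30 and 3 to 15 in the rest. The median deviation over all 8820 genes stayed between 0.02 and 0.06 in each library.

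Fatty acids enter the cardiac muscle cell through membrane proteins such as CD36 and are bound in the cytosol by FABP3. After activation to acyl-CoA, carnitine palmitoyltransferase 1 moves them toward the mitochondrial matrix, a step that malonyl-CoA inhibits. In the matrix, chain length-specific dehydrogenases start each turn of the beta-oxidation spiral and pass their electrons to the electron transfer flavoprotein, while a hydratase, a dehydrogenase and a thiolase complete the turn. PPARGC1A is a coactivator of the transcription of mitochondrial and fatty acid oxidation genes, and the pyruvate dehydrogenase kinases PDK2 and PDK4 restrain the entry of glucose carbon into the citric acid cycle.

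**Figure D1:**
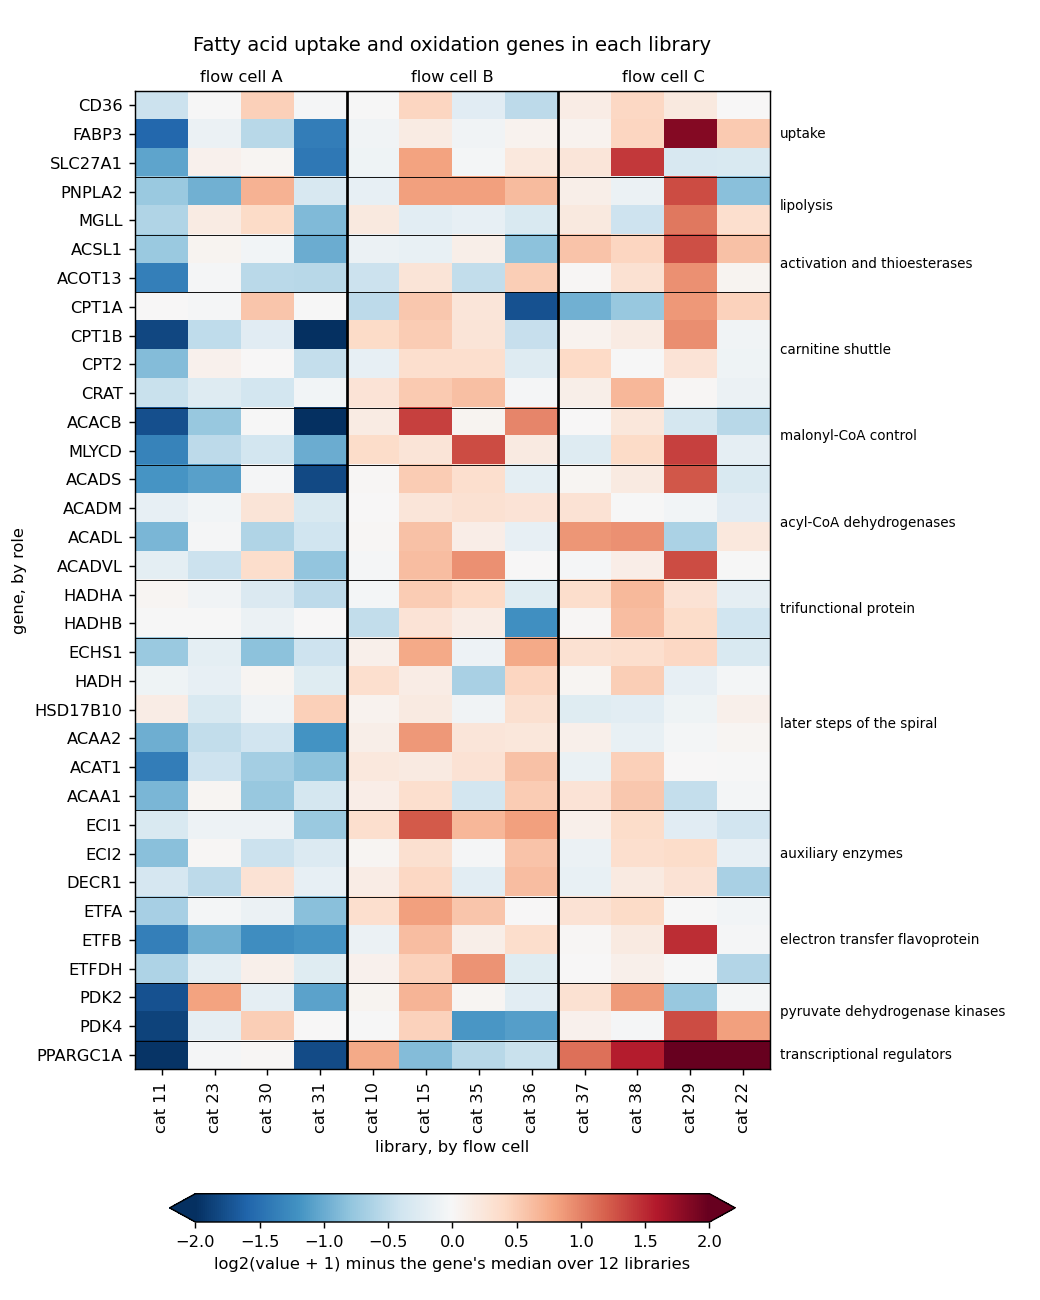
Heat map of the 34 tested fatty acid genes (rows, by role) in the 12 libraries (columns, by flow cell). Colour gives log2(value + 1) minus the gene's median over the 12 libraries, with the scale ending at -2 and 2. The columns of cats 11 and 31 are blue in most rows, and the rows of FABP3, ACADVL and ETFB are reddest in cat 29.

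Genes of fatty acid uptake and oxidation were lower in the libraries of flow cell A than in those of flow cells B and C. Of the 34 tested genes, 10 passed an adjusted p of 0.05 (limma, log2(value + 1), adjusted over all 8820 genes), all of them lower in flow cell A, where 474 of all tested genes passed and 314 of them, or 3.56% of all, were lower. The 10 genes were FABP3, CPT1B, ACACB, MLYCD, ACADS, ECHS1, ACAA2, ACAT1, ETFB and PPARGC1A. The log2 difference, flow cell A minus the mean of B and C, was below 0 in 31 of the 34, with a median of -0.66 against 0.03 for all tested genes. All 4 libraries of flow cell A lay below all 8 others for 5 of the 34, FABP3, MLYCD, ACAA2, ACAT1 and ETFB, where 2.51% of all genes did so. Flow cell A was singled out with earlier results of these data known, so the direction is a description of these libraries rather than an independent test.

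The count of calls fell most without cats 11 and 31, although leaving libraries out also lowers the power of the test. Without cat 11, 1 of the 34 genes passed, ETFB, against 0.465% of all genes called lower, and without cat 31, 2 passed, ETFB and ACAT1, against 1.38%. With both left out 0 of the 34 and 0.0% of all genes passed in limma, 6 of the 34 were lower at an unadjusted p under 0.05, where 7.21% of all genes were (636 of the 911 at that p), and the median difference was -0.41. Leaving out cats of the other flow cells also lowered the count, to 5 without cat 15 and to 6 without cat 38 or cat 29, where 3.21%, 3.68% and 3.56% of all genes passed in either direction and 189, 219 and 205 genes were lower. When the libraries labelled 22 and 29 were left out, 3 passed, against 161 of all 8820 genes called lower. Of these 3, ACAT1 and ETFB were among the first 10 and ACADL was not. Without size factors 4 passed, FABP3, ACAT1, ETFB and PPARGC1A, against 1.72% of all genes called lower. There the median difference of all genes moved from 0.03 to 0.22, and the share of calls that were lower from 66.2% to 30.2%.

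Cell type markers moved with the flow cells as well. Of 12 cardiac muscle cell markers, 11 had a difference below 0, and ACTC1 had one of 0.59. At an adjusted p under 0.05, 7 were lower in flow cell A and 0 higher, where 314 of all 8820 genes were lower. The 12 markers summed to 152771 to 219529 scaled reads against 168413 to 411771 in the others. No fibroblast or smooth muscle marker had a difference below 0. Of 7 fibroblast markers, 4 passed as higher in flow cell A (summed, 1205 to 3287 against 276 to 1807). Of 4 smooth muscle markers 2 passed as higher, TAGLN and CNN1, where 160 of all genes did. The smooth muscle sums did not overlap (369 to 1271 against 88.5 to 286). Nor did TAGLN (188 to 744 against 28.6 to 134) and CNN1 (47.1 to 439 against 0 to 19.2). The values of ACTA2 (104 to 126 against 49.0 to 152) and MYH11 (2.39 to 16.8 against 1.36 to 17.6) overlapped. None of 8 endothelial and 5 tested immune markers passed the test, with sums of 601 to 911 against 478 to 1577 for endothelial markers and 74.9 to 244 against 49.0 to 521 for immune markers. Summed adipocyte markers were at 6.8 to 26.1 against 10.8 to 45.6, and the 1 that could be tested did not pass. With the summed cardiac muscle cell markers as a covariate, the median difference of the 34 genes was -0.69 and 0 passed, where 0.0113% of all genes did, with 17 at an unadjusted p under 0.05, where 13.8% of all genes were. With the summed smooth muscle markers it was -0.079, with 0 past the adjusted threshold, as for all genes, and 1 at an unadjusted p under 0.05, where 5.73% of all genes were. The smooth muscle sums separate flow cell A from the others, so this covariate and the flow cell cannot be told apart. The cardiac muscle cell sums overlapped in part. They were weighted towards MYL2 and CKM, the markers with the most scaled reads, and neither was among the 7 that passed. MYL2 had 80038 to 149212 in flow cell A and a difference of -0.16 (adjusted p = 0.791 in limma). CKM had 25912 to 46219 there and a difference of -0.91 (adjusted p = 0.123). The covariate thus follows the 7 only in small part, and what either covariate removes was not tested. In tissue, fewer cells of a type and less RNA per cell cannot be told apart.

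Among the uptake genes, FABP3, the fatty acid-binding protein of the cardiac muscle cell cytosol, had 2001, 5452, 4011 and 2259 scaled reads in cats 11, 23, 30 and 31 of flow cell A. In flow cell B it had 5671, 6642, 5656 and 6185 in cats 10, 15, 35 and 36, and in flow cell C 6213, 8016, 21255 and 8506 in cats 37, 38, 29 and 22. Each library of flow cell A was thus below each of the other 8, and cat 29 was far above the rest. The log2 difference was -1.28 ± 0.31 (SE; adjusted p = 0.0276 in limma), or 0.412 times the level of the other flow cells.

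CD36, the main fatty acid translocase of the heart, did not follow FABP3. It had 938, 1263, 1771 and 1248 scaled reads in cats 11, 23, 30 and 31 of flow cell A, 1258, 1702, 1083 and 882 in cats 10, 15, 35 and 36 of flow cell B, and 1403, 1684, 1460 and 1277 in cats 37, 38, 29 and 22 of flow cell C. The highest value, in cat 30, and the second lowest, in cat 11, both came from flow cell A, and the difference was -0.05 ± 0.21 (adjusted p = 0.914), a sign that turned under 5 of the 25 alternatives. The difference for SLC27A1, a transport protein with acyl-CoA synthetase activity, was -0.83 ± 0.38 and did not pass (adjusted p = 0.212), on 11 to 94 reads per library. SLC27A6 had 0 reads in each of the 12 libraries, where the limit that a count of 0 allows is 3 reads, or 1.45 to 4.29 scaled reads depending on the library.

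**Figure D2:**
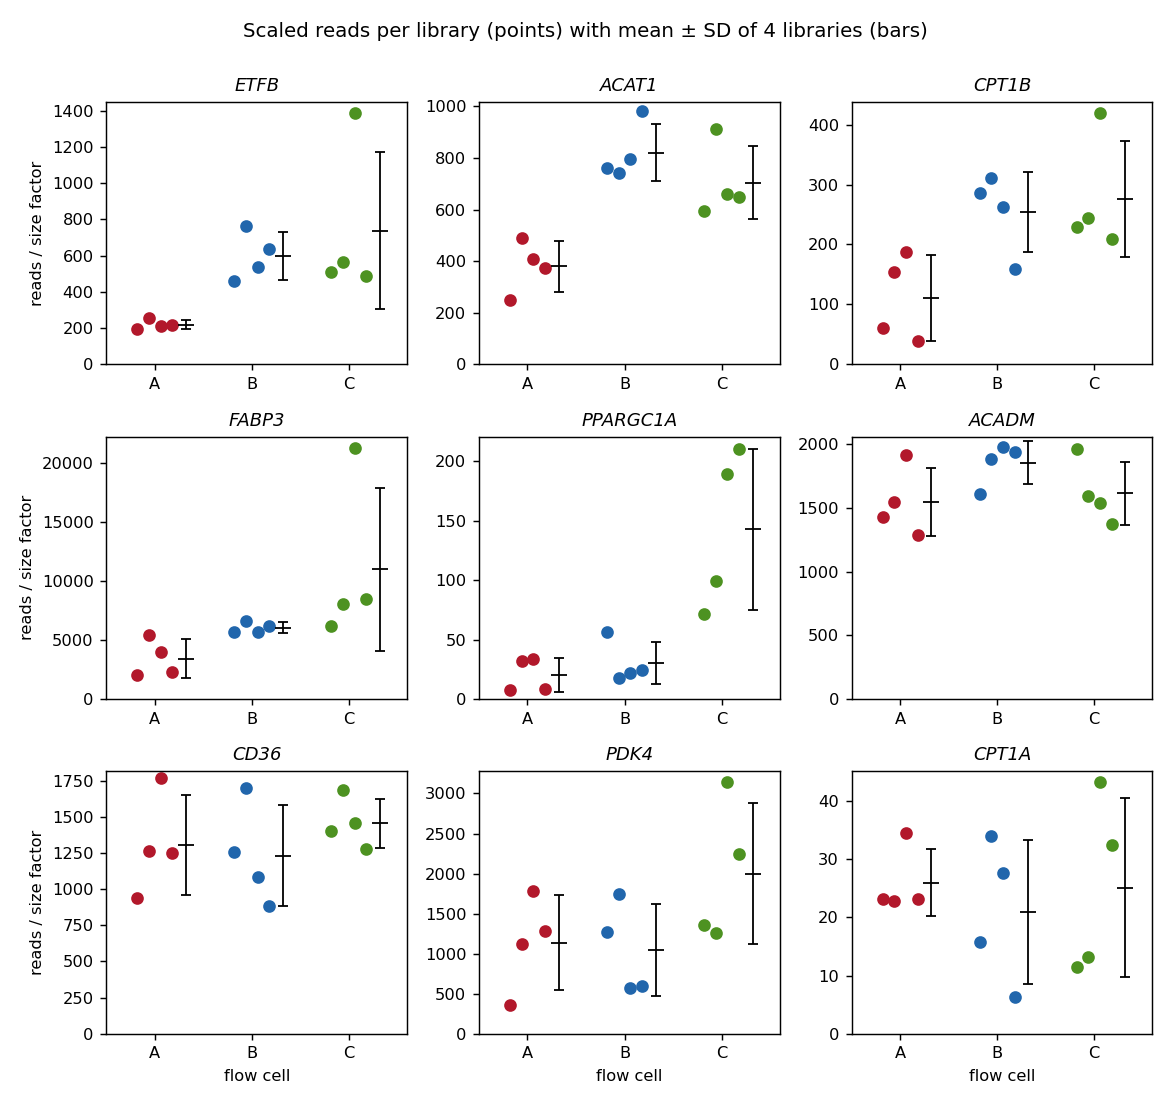
Scaled reads (reads divided by the size factor, linear axis from 0) of 9 genes in each library, by flow cell, with the mean ± SD of 4 libraries beside the points. ETFB and ACAT1 show no overlap of flow cell A with B or C, CD36, ACADM and CPT1A overlap in all 3 flow cells, and PPARGC1A is high in flow cell C.

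Lipolysis and activation genes showed the same sign without passing the test. The lipases PNPLA2, which starts the breakdown of stored triglyceride, and MGLL, which releases the last fatty acid, differed by -0.65 ± 0.36 (adjusted p = 0.298) and -0.32 ± 0.28 (adjusted p = 0.535). ACSL1, the main acyl-CoA synthetase of the heart, had 176 to 367 scaled reads in flow cell A, 199 to 380 in B and 472 to 859 in C. Its values in flow cell A were all below those in C but overlapped those in B, and the difference from C was -1.15 (adjusted p = 0.0503), whereas that from B was -0.19 (adjusted p = 0.753). The thioesterase ACOT13, which splits acyl-CoA, had 144 to 368 in flow cell A against 265 to 707 in the others, a difference of -0.76 ± 0.27 (adjusted p = 0.102).

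In the carnitine shuttle the 2 isoforms of carnitine palmitoyltransferase 1 parted. CPT1B, the muscle isoform, had 61.3, 154, 187 and 38.3 scaled reads in cats 11, 23, 30 and 31 of flow cell A, 285, 310, 263 and 158 in cats 10, 15, 35 and 36 of flow cell B, and 229, 245, 419 and 209 in cats 37, 38, 29 and 22 of flow cell C. Cats 11 and 31 were the lowest, and cat 36 of flow cell B lay below cat 30. The difference was -1.48 ± 0.36 (adjusted p = 0.0267), or 0.358 times.

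CPT1A, the isoform best known from liver, had 22.8 to 34.5 scaled reads in flow cell A, 6.23 to 34 in B and 11 to 43.2 in C, and differed by 0.37 ± 0.42 (adjusted p = 0.653). With 7 to 48 reads per library its counting error was large, at a coefficient of variation of 20.8%. The log2 ratio of CPT1B to CPT1A, a pair chosen after the values were seen and described without a test, was 1.79 ± 0.93 in flow cell A (SD, n = 4) and 3.64 ± 0.65 in the other libraries (SD, n = 8). The lowest of the 8 others, at 2.65, lay just below the highest of flow cell A, at 2.71. CPT2, which rebuilds acyl-CoA inside the mitochondrion, differed by -0.42 ± 0.23 (adjusted p = 0.302), and CRAT, which exchanges acetyl groups with carnitine, by -0.54 ± 0.20 (adjusted p = 0.116).

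Both enzymes that set malonyl-CoA were lower in flow cell A, although they act in opposite directions. ACACB, the carboxylase that makes malonyl-CoA near the outer mitochondrial membrane, had 14, 28.2, 48.0 and 4.79 scaled reads in cats 11, 23, 30 and 31, against 32.4 to 127 with a median of 52.3 in the 8 others. It differed by -1.64 ± 0.44 (adjusted p = 0.0392), on 6 to 108 reads per library. MLYCD, the decarboxylase that removes malonyl-CoA, had 21.7, 39.0, 43.8 and 27.9 in the same cats against 47.2 to 147 with a median of 70.7 in the others, and differed by -1.24 ± 0.32 (adjusted p = 0.0347). The ranges of ACACB overlapped through cat 30, and those of MLYCD did not overlap.

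**Figure D3:**
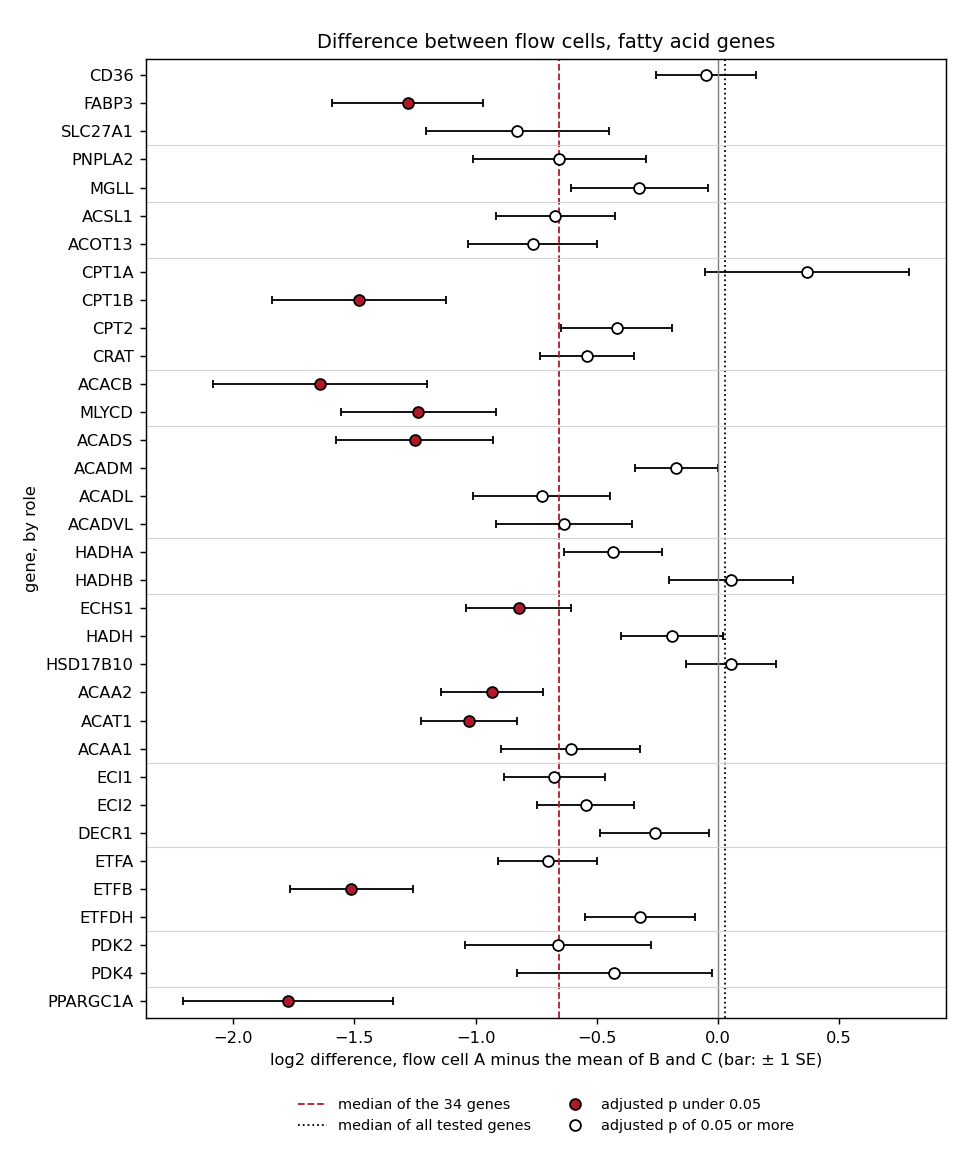
Log2 difference between flow cell A and the mean of flow cells B and C for each of the 34 genes, with bars of ± 1 SE from limma and filled points where the adjusted p is under 0.05. The dashed line marks the median of the 34 genes, -0.66, and the dotted line that of all tested genes, 0.03.

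The acyl-CoA dehydrogenases, which begin each turn of the spiral, differed in how far they followed the pattern. ACADS, for short chains, had 29, 30.9, 65.7 and 18.3 scaled reads in cats 11, 23, 30 and 31, against 54.0 to 158 with a median of 72.2 in the 8 others. It differed by -1.25 ± 0.32 (adjusted p = 0.0349), with cat 30 inside the range of the other flow cells.

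ACADM, for medium chains, was the steadiest of the 34 genes. It had 1429, 1546, 1912 and 1288 scaled reads in cats 11, 23, 30 and 31 of flow cell A, 1605, 1883, 1980 and 1939 in cats 10, 15, 35 and 36 of flow cell B, and 1958, 1594, 1536 and 1373 in cats 37, 38, 29 and 22 of flow cell C. Its coefficient of variation over the 12 libraries was 15%, the lowest of the list, and the flow cells overlapped, with a difference of -0.17 ± 0.17 (adjusted p = 0.596). For ACADL and ACADVL, which act on long and very long chains, the differences were -0.73 ± 0.28 (adjusted p = 0.141) and -0.63 ± 0.28 (adjusted p = 0.199).

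HADHA and HADHB, the alpha and beta subunits of the mitochondrial trifunctional protein, did not pass. HADHA had 904, 837, 716 and 609 scaled reads in flow cell A against 743 to 1378 with a median of 1103 in the others, a difference of -0.43 ± 0.20 (adjusted p = 0.226). HADHB had 637, 635, 589 and 642 in flow cell A against 273 to 982 in the others, a difference of 0.05 ± 0.26 (adjusted p = 0.925), whose sign turned under 6 of 25 alternatives. The mean of flow cell A was 626 ± 24.6 (SD, n = 4), whereas the SD was 232 in flow cell B and 216 in flow cell C. The log2 ratio of HADHA to HADHB, also chosen after the values were seen, was 0.28 ± 0.25 in flow cell A (SD, n = 4) and 0.76 ± 0.32 in the others (SD, n = 8), with overlapping ranges.

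Of the 6 genes for later steps of the spiral, 3 passed. ACAT1, the thiolase that acts on acetoacetyl-CoA and also serves ketone body use, had 250, 489, 407 and 372 scaled reads in cats 11, 23, 30 and 31 of flow cell A. In flow cell B it had 760, 741, 797 and 981 and in flow cell C 595, 913, 659 and 648, so no library of flow cell A reached any of the other 8. The difference was -1.03 ± 0.20 (adjusted p = 0.0096), or 0.491 times.

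ACAA2, the thiolase that splits off acetyl-CoA in the matrix, had 68.5, 96.7, 104 and 59.0 scaled reads in flow cell A against 122 to 249 with a median of 147 in the others, again without overlap, and differed by -0.93 ± 0.21 (adjusted p = 0.0186). ECHS1, the short-chain enoyl-CoA hydratase, had 442, 649, 419 and 556 against 601 to 1249 with a median of 924, and differed by -0.82 ± 0.22 (adjusted p = 0.0374), with cat 23 above the lowest of the others. HADH, the hydroxyacyl-CoA dehydrogenase for medium and short chains, and HSD17B10, a dehydrogenase that is also a subunit of mitochondrial RNase P, differed by -0.19 ± 0.21 (adjusted p = 0.636) and 0.06 ± 0.19 (adjusted p = 0.893). For ACAA1, a peroxisomal thiolase, the difference was -0.61 ± 0.29 (adjusted p = 0.225) on 15 to 47 reads.

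The auxiliary enzymes, which prepare unsaturated fatty acids for the spiral, did not pass against the mean of the other flow cells. ECI1, an enoyl-CoA isomerase, had 349 to 541 scaled reads in flow cell A, 738 to 1364 in B and 448 to 755 in C. Its values in flow cell A were all below those in B, with a difference of -1.07 (adjusted p = 0.0259), and overlapped those in C, with a difference of -0.28 (adjusted p = 0.579). ECI2, another isomerase, and DECR1, a dienoyl-CoA reductase, differed by -0.55 ± 0.20 (adjusted p = 0.12) and -0.26 ± 0.23 (adjusted p = 0.53).

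ETFB, the beta subunit of the electron transfer flavoprotein, had the smallest adjusted p of the list. It had 193, 257, 211 and 219 scaled reads in cats 11, 23, 30 and 31 of flow cell A, 458, 765, 539 and 638 in cats 10, 15, 35 and 36 of flow cell B, and 509, 568, 1390 and 489 in cats 37, 38, 29 and 22 of flow cell C. The highest library of flow cell A was well below the lowest of the other 8. The difference was -1.51 ± 0.25 (adjusted p = 0.00639), or 0.35 times, and ETFB stayed past the threshold when any 1 library was left out.

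Its partner ETFA had 731, 1120, 1064 and 647 scaled reads in flow cell A against 1107 to 2046 in the others, a difference of -0.70 ± 0.21 (adjusted p = 0.0583). The log2 ratio of ETFB to ETFA, the third pair chosen after the values were seen, was -1.98 ± 0.33 in flow cell A (SD, n = 4) and -1.17 ± 0.64 in the others (SD, n = 8), with overlapping ranges. ETFDH, which passes the electrons on to ubiquinone, differed by -0.32 ± 0.23 (adjusted p = 0.429).

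Of the regulators, PPARGC1A varied most. It had 7.72, 32.2, 33.7 and 8.77 scaled reads in cats 11, 23, 30 and 31 of flow cell A, 56.4, 17.7, 22 and 24.0 in cats 10, 15, 35 and 36 of flow cell B, and 71.5, 99.3, 190 and 211 in cats 37, 38, 29 and 22 of flow cell C. Every library of flow cell C was above every library of A and B, which overlapped each other. The difference was -1.78 ± 0.43 against the mean of B and C (adjusted p = 0.0276), -0.66 against B (adjusted p = 0.485) and -2.89 against C (adjusted p = 0.0149). Between B and C it was -2.22 (adjusted p = 0.228 in limma), the comparison in which DESeq2 called PPARGC1A. The values spanned 27.3-fold, with a coefficient of variation of 107%, the largest among the tested genes of the list.

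PPARA, the nuclear receptor for fatty acids, had 40 reads in all and 0 to 10 per library, too few to test. PDK4 had 354, 1124, 1786 and 1287 scaled reads in cats 11, 23, 30 and 31 of flow cell A, 1266, 1751, 571 and 593 in cats 10, 15, 35 and 36 of flow cell B, and 1353, 1261, 3138 and 2248 in cats 37, 38, 29 and 22 of flow cell C. Cat 11 was the lowest library and cats 29 and 22 the highest, and the flow cells overlapped, with a difference of -0.43 ± 0.40 (adjusted p = 0.568). PDK2 had 54.1, 320, 161 and 86.1 in flow cell A against 108 to 329 in the others, a difference of -0.66 ± 0.38 (adjusted p = 0.329).

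Set against each of the other flow cells, which share the 4 libraries of A, the calls were fewer. Against flow cell B, 5 of the 34 genes were lower (ACACB, ECI1, ACAA2, ACAT1 and ETFB), where 2.26% of all genes were, and against flow cell C 3 were lower (FABP3, ETFB and PPARGC1A), where 1.09% were. Between flow cells B and C limma called 0 of the 34 genes and 0.0% of all genes, with 4 of the 34 and 7.89% of all genes at an unadjusted p under 0.05. In that comparison edgeR also called 0 of the 34, with 4 of them and 7.61% of all genes at an unadjusted p under 0.05. DESeq2 called 1, PPARGC1A, and 0.261% of all genes, with 5 of the 34 and 7.54% of all genes at an unadjusted p under 0.05. For A against the mean of B and C, edgeR on the recovered reads called 7 of the 34 lower, where it called 2.82% of all genes lower, and DESeq2 called 12, where it called 5.45% lower.

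Neighbouring pathways were compared in the same fit through lists of symbols. Of 39 other tested genes of fatty acid metabolism, 26 had a difference below 0, with a median of -0.31. At an adjusted p under 0.05, 1 was lower and 1 higher in flow cell A, where 314 and 160 of all 8820 genes were. The lower one was PLIN5, which tethers lipid droplets to mitochondria, with 7.24 to 90 scaled reads against 78.4 to 184 and a difference of -2.27 ± 0.54 (adjusted p = 0.0229). The higher one was ACOT9, a mitochondrial thioesterase, with 48.0 to 152 against 20 to 44.0 and a difference of 1.57 ± 0.32 (adjusted p = 0.0116). Of the others in that list, ACAD11 and ACSL4 came nearest, with differences of -1.91 ± 0.65 (adjusted p = 0.0941) and 0.91 ± 0.36 (adjusted p = 0.143).

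Of 18 other regulators of oxidation, 14 had a difference below 0, with a median of -0.35. At an adjusted p under 0.05, 2 were lower and 0 higher, where 3.56% of all genes were lower. KLF15, a transcription factor of cardiac lipid metabolism, differed by -1.62 ± 0.35 (adjusted p = 0.0147), and ESRRA, an orphan nuclear receptor that works with PPARGC1A, by -1.18 ± 0.26 (adjusted p = 0.0171). The values of ESRRA did not overlap, at 49.5 to 123 against 139 to 244. PPARGC1B, a relative of PPARGC1A, differed by -1.33 ± 0.43 (adjusted p = 0.0845). OXCT1, which activates ketone bodies for oxidation, differed by -0.35 ± 0.40 (adjusted p = 0.644).

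Subunits of the respiratory chain, which takes up the electrons of beta-oxidation, had a median of -0.71, and 55 of 56 had a difference below 0. At an adjusted p under 0.05, 25 of the 56 were lower and 0 higher, where 3.56% of all genes were lower. The smallest adjusted p, 0.00232, was shared by NDUFB7, NDUFB9 and NDUFS6 of complex I, with differences of -1.44 ± 0.21, -1.34 ± 0.19 and -1.37 ± 0.20. Of 43 glucose and citric acid cycle genes, 36 had a difference below 0, with a median of -0.41. At an adjusted p under 0.05, 8 were lower and 0 higher, beside the same 3.56% of all genes. Among the 8 were PGAM2, the muscle phosphoglycerate mutase, at -1.91 ± 0.38 (adjusted p = 0.0103), and IDH2, a mitochondrial isocitrate dehydrogenase, at -1.08 ± 0.23 (adjusted p = 0.016). Whether the lists differ from each other was not tested.

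The study ranked genes by Spearman correlation with histological traits and age, and then tested gene sets for enrichment along that ranking. In that step, higher fibrosis went with lower expression of mitochondrial organization genes. Here only the correlation was computed, gene by gene for the 34 genes, with the cats matched by number. The enrichment was not run, so the counts below do not bear on it. The libraries labelled 22 and 29 were left out, since the study's list of sequenced cats names other numbers. For myocardial fibrosis, the share of the myocardium that is fibrotic, 8 cats could be used, and 0 of the 34 genes reached an unadjusted p under 0.05 (exact permutation), where 2.83% of all genes did. The median rho was -0.08. ACADM had a rho of -0.67 (p = 0.0831) and a Pearson's r of -0.38 (p = 0.339), ACADVL a rho of -0.64 (p = 0.0962) and an r of -0.41 (p = 0.312), and PNPLA2 a rho of -0.62 (p = 0.115) and an r of -0.45 (p = 0.26), each by exact permutation and each with an adjusted p of 1. With cats 23 and 15 left out, whose fibrosis lay farthest from the median, r was -0.82 for ACADM, -0.88 for ACADVL and -0.86 for PNPLA2. Without cat 15 alone, 5 genes had an unadjusted p under 0.05, all with negative correlations (ACADVL, PNPLA2, ETFDH, ACADM and ACADS), where 2.29% of all genes did with a negative sign, and 0 passed the adjusted threshold. Within flow cells, over 7 cats, 0 of the 34 had an unadjusted p under 0.05, where 3.5% of all genes did. There 20 of the 34 had a positive rho and the median was 0.14, whereas 9 were positive in the first test over 8 cats. ACADM, ACADVL and PNPLA2 kept a negative rho within flow cells, at -0.79, -0.61 and -0.61.

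**Figure D4:**
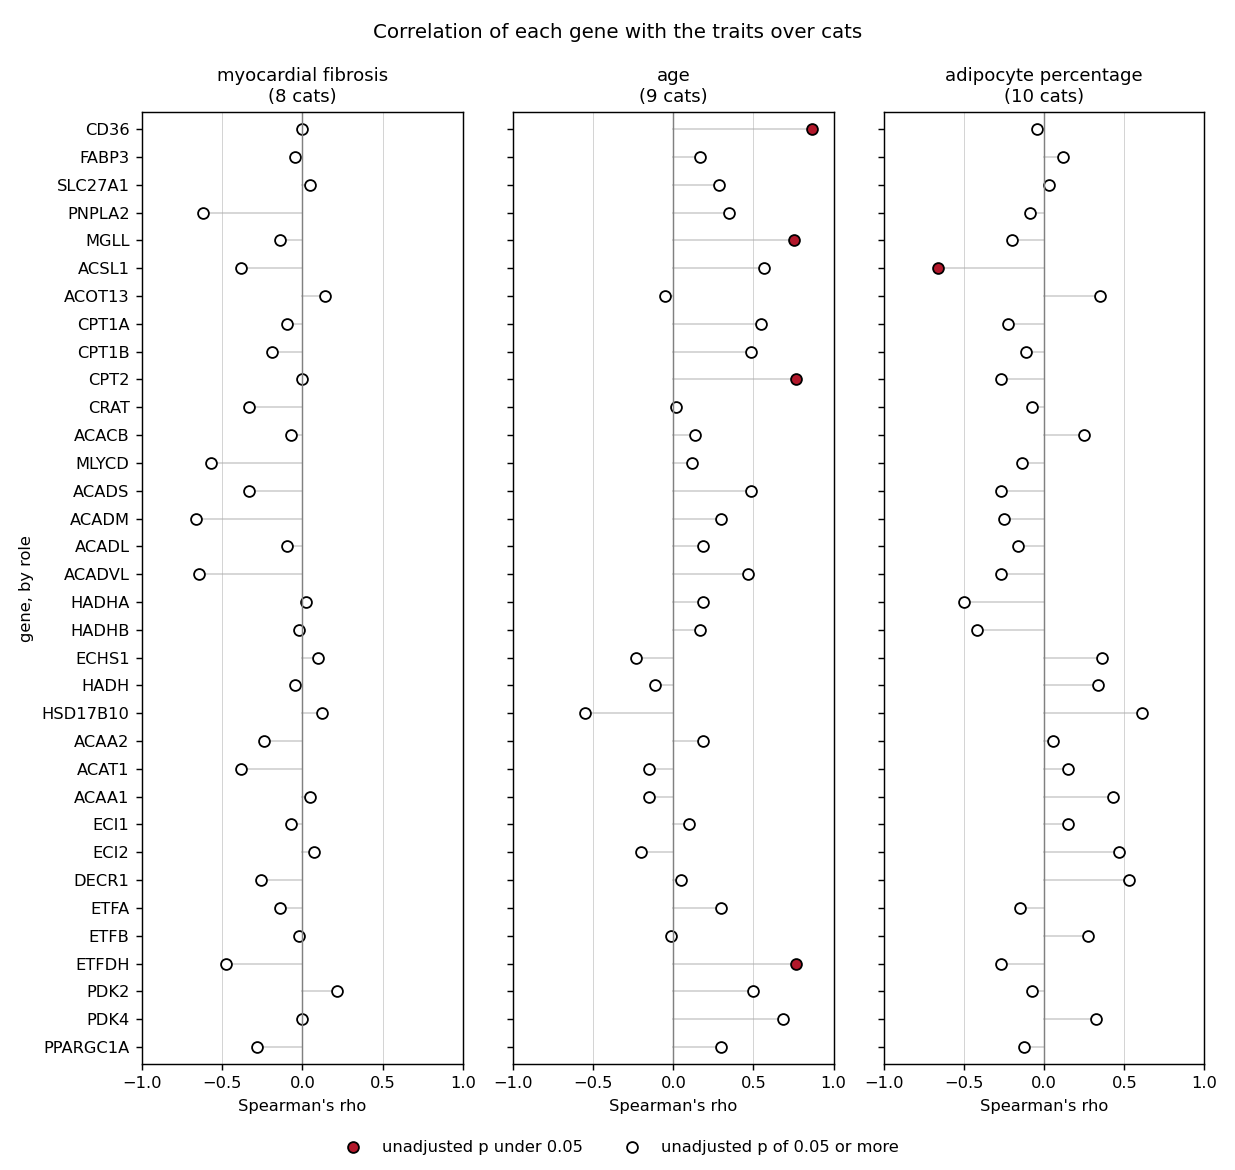
Spearman's rho of each of the 34 genes with myocardial fibrosis (8 cats), age (9 cats) and adipocyte percentage (10 cats). Filled points mark an unadjusted permutation p under 0.05, which applies to 0, 4 and 1 genes, and most points for age lie to the right of 0.

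With age, over 9 cats, 26 of the 34 genes had a positive rho, with a median of 0.18 against -0.02 for all genes. An unadjusted p under 0.05 was reached by 4 of the 34, all positive, where 4.72% of all genes reached it and 2.17% with a positive sign, and 0 passed the adjusted threshold. This count depended on which libraries and which scaling were used. With libraries 22 and 29 entered as labelled, over 11 cats, 0 of the 34 reached it, where 2.41% of all genes did with a positive sign, and the median rho was 0.095. Entered as cats 16 and 25, which the study lists as sequenced, 5 of the 34 reached it, all positive, in either order. Of all 8820 genes, 474 and 455 did in either direction, and the median rho of the 34 was 0.14 and 0.17. On reads without scaling the median was -0.10, against -0.34 for all genes, and the 3 genes that reached it, ACAA1, CRAT and HSD17B10, had negative correlations, where 10.5% of all genes did so. CD36 had a rho of 0.87 (exact permutation p = 0.00451, adjusted p = 0.812) and a Pearson's r of 0.69 (exact permutation p = 0.0417). Its values ran from 882 in cat 36 through a median of 1263 to 1771 in cat 30, and the 3 lowest came from cats 36, 11 and 31, the 3 youngest. Leaving out cat 30 and either cat 15 or cat 36, whose ages were farthest from the median, r was 0.43 in both cases, so the size of the relation rested on those cats. Its rho was 0.56 with libraries 22 and 29 entered as labelled and -0.033 on reads without scaling.

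CPT2, the inner carnitine palmitoyltransferase, and ETFDH each had a rho of 0.77 (exact permutation p = 0.0214, adjusted p = 0.858). Their Pearson's r was 0.64 for CPT2 (exact permutation p = 0.0633) and 0.59 for ETFDH (exact permutation p = 0.0969). CPT2 ran from 38.1 to 93.0 scaled reads over the 9 cats and ETFDH from 133 to 280, and in both cat 11 was the lowest. Without the 2 farthest cats r was 0.67 or 0.78 for CPT2 and 0.35 or 0.59 for ETFDH. The fourth gene was the lipase MGLL, with a rho of 0.75 (exact permutation p = 0.0255).

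Within flow cells, each of these relations held its sign, with a rho of 0.91 for CD36 (exact permutation p = 0.0174), 0.88 for CPT2 and 0.85 for ETFDH (both exact permutation p = 0.0347), and 6 of the 34 genes had an unadjusted p under 0.05, all positive, where 2.86% of all genes did. In a limma slope on age with the flow cell as a covariate, 12 of the 34 had an unadjusted p under 0.05, all positive, where 4.89% of all genes did. The smallest adjusted p there was 0.187, for CPT1B, so 0 passed. Cats 11 and 31, in which most of the 34 genes were low, were 2 of the 3 youngest, whereas the youngest, cat 36, had a median deviation of 0.05.

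The percentage of adipocytes in the section was available for 10 cats. By the study's methods, slides of cats 10, 15, 23, 30 and 36 belonged to a second staining batch and were scored by a separately trained classifier. The percentage covers the whole section of the heart, whereas the RNA came from the left ventricle. What either does to the correlations was not tested. One gene, ACSL1, reached an unadjusted p under 0.05, with a rho of -0.66 (permutation p = 0.0449, adjusted p = 1), where 3.1% of all genes did. Its Pearson's r was -0.62 (permutation p = 0.0541), and -0.14 without cats 36 and 31, whose percentages lay farthest from the median. The size of r thus rested on these cats. With 1 cat left out its rho ran from -0.92 to -0.55. Next came HSD17B10, with a rho of 0.61 (permutation p = 0.0669) and an r of 0.67 (permutation p = 0.0327), and DECR1, with a rho of 0.53 (permutation p = 0.122) and an r of 0.60 (permutation p = 0.0669). Without cats 36 and 31, r was 0.29 for HSD17B10 and 0.52 for DECR1. Within flow cells the rho was -0.65 for ACSL1, 0.52 for HSD17B10 and 0.60 for DECR1, with permutation p of 0.116, 0.197 and 0.155. The 1 gene of the 34 with an unadjusted p under 0.05 there was ACAA1, with a rho of 0.87 (permutation p = 0.00608, adjusted p = 0.957), where 2.39% of all genes reached it with a positive sign.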

How the data were processed

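Left ventricular RNA of 12 cats was sequenced with a direct RNA kit on 3 flow cells. Basecalling by the authors used Guppy. After a quality filter, reads were aligned to felCat9 in Minimap2 and assigned to genes by FeatureCounts. The strand setting is not given in the sources used here. The deposited signal values are read counts divided by 1 size factor per library, a step not named in the paper, and 100.0% of the values came out as whole reads (tolerance 1e-06).

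A gene was tested if 3 or more of the 12 libraries held 10 or more of its reads. The test was run on log2(value + 1) with limma 3.58.1 (R 4.3.3), with an intensity trend, 3 flow cell means and two-sided Benjamini-Hochberg adjusted p-values over 8820 genes. A log2 difference on this scale understates the change of genes with few reads. Traits of the cats came from the study's list of animals by cat number and were tested with Spearman's rho, two-sided, by exact permutation for up to 9 cats and 100000 permutations for 10 or more. Calls at an unadjusted p under 0.05 are marked as such. edgeR 4.0.16 and DESeq2 1.42.0 were run on the recovered reads. The tests were tried on simulated data. No gene lengths were used, so a ratio of 2 genes was compared between libraries only and its level was not read, and no sequence or coordinate is given.

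Values per library are given for the genes with the largest differences among those past the threshold and for 7 genes named whatever their values, for each trait the 3 genes with the smallest p, and for other lists up to 4 genes with the smallest adjusted p. The genes, lists and tests were chosen with earlier results of these data known. Clinical outcome is not in the labels and was not used to group libraries. One result for a neighbouring pathway is not reported here.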

Additional observations from a re-analysis of the deposited data

Results flagged for a closer look

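Of 102 groups of 4 libraries (34 genes on 3 flow cells), 11 held a library whose gap to the nearest of the others exceeded Dixon's critical value for 4 samples. Independent, normally distributed values exceed it in about 1 in 20 groups. These groups share libraries and the values were not on a log scale, so the count of 11 is a description and not a test. Cat 29 of flow cell C was the high library for 5 genes. It had 21255 scaled reads of FABP3 against 6213 to 8506 in the other 3 libraries of its flow cell, 859 of ACSL1 against 472 to 531, 419 of CPT1B against 209 to 245, 1330 of ACADVL against 532 to 592, and 1390 of ETFB against 489 to 568. Its number is not among those the study lists as sequenced.

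In flow cell A, cat 30 was apart for 2 genes, with 34.5 scaled reads of CPT1A against 22.8 to 23.2 and 589 of HADHB against 635 to 642. In flow cell B, the library of cat 35 had 142 of MLYCD against 64.1 to 73.3, that of cat 15 had 249 of ACAA2 against 148 to 161, and that of cat 10 had 56.4 of PPARGC1A against 17.7 to 24.0. In flow cell C, cat 22 had 601 of ECHS1 against 917 to 982. The cause of these values was not tested.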

How the results depend on the processing

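With TMM scaling, pseudocounts of 0.5 and 2 and the 2-group fit, 9 or 10 of the 34 genes were called between flow cell A and the mean of B and C. Without size factors 4 were called, and the median of all genes moved to 0.22 with 30.2% of calls lower, against 0.03 and 66.2%. DESeq2 called 832 genes. Without the libraries labelled 22 and 29, 255 genes and 3 of the 34 were called, 2 of them among the 10 called with all libraries. Leaving out 1 library at a time gave 54 (cat 11) to 529 (cat 23) genes, 1 to 10 of the 34 and a median of -0.76 to -0.52, with 165 genes without cat 31, 283 without cat 15 and 314 without cat 29. The following alternatives were chosen after seeing the data. Without cats 11 and 31, 0 genes and 0 of the 34 passed in limma (911 and 6 at an unadjusted p under 0.05), with a median of -0.41. The smooth muscle covariate left 0 genes and 0 of the 34 (505 and 1 unadjusted), with a median of -0.079, and the cardiac muscle cell covariate 1 gene and 0 of the 34 (1221 and 17 unadjusted). The reasons were not tested.

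The following signs turned. With the smooth muscle covariate the difference was 0.55 for CD36, 0.93 for SLC27A1, 0.13 for MGLL, 0.10 for ACOT13, 0.0028 for CPT2, 0.55 for ACACB, 0.078 for ACADM, 0.33 for HADH, -0.26 for HSD17B10, 0.032 for ECI1, 0.0093 for ECI2, 0.35 for DECR1, 0.86 for PDK2 and 0.49 for PDK4. With the cardiac muscle cell covariate it was -0.14 for CPT1A, -0.32 for HADHB, 0.13 for HADH and 0.11 for DECR1. Without cats 11 and 31 it was 0.18 for CD36, 0.19 for MGLL, -0.19 for HSD17B10, 0.20 for PDK2 and 0.11 for PDK4. Without size factors it was 0.16 for CD36, 0.036 for ACADM and 0.016 for HADH. HADHB was at -0.022 in edgeR, -0.028 in DESeq2 and -0.030 without the libraries labelled 22 and 29. With 1 library left out, CD36 ranged from -0.21 to 0.10, HADHB from -0.10 to 0.15, HSD17B10 from -0.085 to 0.18 and PDK4 from -0.72 to 0.059.

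For fibrosis, reads without scaling gave 4 of the 34 at an unadjusted p under 0.05, where 422 of all 8820 genes did. The median rho was then -0.49, against -0.36 for all genes. Within flow cells the median rho was 0.14, and with Pearson's r the median was 0.048. Entering libraries 22 and 29 as cats 16 and 25 gave 2, where 311 of all genes reached that p. Leaving out 1 cat gave 0 to 5, with 1 without cat 38 (311 of all genes) and 5 without cat 15 (416 of all genes). For age, Pearson's r gave 2 (425 of all genes), libraries 22 and 29 entered as labelled 0 (474) and the slope with flow cell 12 (1017). Entered as cats 16 and 25, these libraries gave 5 (474), and in the other order also 5 (455). Leaving out 1 cat gave 2 without cat 30 (493 of all genes) or cat 38 (468), and up to 5, without cat 23 (431). The median rho was -0.10 without scaling, where that of all genes was -0.34 and rho was -0.033 for CD36 and -0.20 for ETFDH, and 0.49 within flow cells. For adipocyte percentage, libraries 22 and 29 entered as cats 16 and 25 gave 0 (331 of all genes), and in the other order also 0 (397). The slope gave 2 (335 of all genes) and the slope with flow cell 3 (455). Leaving out 1 cat gave 0 to 2, with 2 without cat 11 (338 of all genes). It gave 0 without cat 10, 30, 31, 35, 36, 37 or 38, where 177 to 403 of all genes reached that p. No paired analysis was possible because each cat number occurs on 1 flow cell. Genes with few reads, such as CPT1A and ACAA1, have counting errors of 20.8% and 21.3%, which limits the precision of their values in a single library.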

Other observations

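The genes of the list moved together from library to library. Over the 12 libraries the median Pearson's r between 2 of the 34 genes was 0.44, with 86.1% of the 561 pairs positive, and 0.29 with 78.1% positive once the mean of each flow cell had been subtracted. Over all pairs of the 8820 tested genes the median was near 0, with 49.9% positive. Those genes had a median of 25.5 reads, against 276 for the 34. No other pathway or marker list was compared in this way, so the trait is not shown to be particular to this list. These are descriptions over 12 libraries that share flow cells and scaling, and no p is attached to them. Against the mean of the other genes of the list, r was 0.94 for CPT1B, 0.90 for ACADS and 0.86 for FABP3, and 0.0017 for CPT1A, 0.19 for HADHB, 0.24 for HADH and -0.45 for HSD17B10.

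The spread between libraries was well above counting error for most genes of the list. The median coefficient of variation was 39.9% against 6.22% from counting, on a median of 276 reads, and that of all tested genes was 40.2% against 19.3%. PPARGC1A at 107%, FABP3 at 72.6% and ACACB at 67.4% varied most, and ACADM at 15% and HSD17B10 at 16.8% least. FABP3 spanned 10.6-fold, CPT1B 10.9-fold and ACACB 26.5-fold.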
